A study of Homo sapiens with 32 samples.

Results

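The mRNAs described here encode the proteins of the mitochondrial ribosome. The set holds every protein-coding gene with a symbol built from MRPL or MRPS, a number and an optional letter from A to C, which gave 77 of the 19815 protein-coding genes in the count tables, 48 of them named for the large subunit and 29 for the small subunit. All 77 passed the filter on low counts in both cell lines and were tested. The count tables were made from MCF10A, an immortalised line of non-tumour human breast epithelium, and MDA-MB-231, a metastatic line of triple-negative breast carcinoma. Each line was kept in normoxia (N), in hypoxia at 0.5% O2 for 24 h (H), in normoxia with PP242 at 2.5 µM for 3 h (NPP), or in hypoxia with PP242 (HPP). PP242 is an ATP-competitive inhibitor of the mTOR kinase, and control cells received its vehicle, DMSO. From every condition the total mRNA (T) and the mRNA sedimenting with 2 or more ribosomes on a sucrose gradient (P, polysome-bound) were sequenced in 2 biological replicates, which gave 32 libraries of 18340916 to 46032327 counts with a median of 34561484. Translational efficiency (Te) was taken as the log2 change in P minus the log2 change in T. The question was how mRNAs that are short, as those of cytosolic ribosomal proteins are, but mostly lack their 5′ terminal oligopyrimidine (TOP) motif, moved in T and in P under hypoxia and mTOR inhibition.

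The mitochondrial ribosome translates the few mRNAs that the mitochondrial genome encodes, which specify core subunits of the respiratory chain. Its proteins are all encoded in the nucleus, made on cytosolic ribosomes and imported, so that its assembly depends on cytosolic translation. The mRNAs of cytosolic ribosomal proteins begin with a cytosine followed by a run of pyrimidines, the TOP motif, through which mTOR activity is known to control their loading onto ribosomes.

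The first bases of the mRNAs show this difference. The start sites below were read from RefSeq (GRCh38.p14), in which 69 of the 77 members were matched, and the 20 bases from each start are given 5′ to 3′ on the coding strand with the leading pyrimidine run of a TOP start in capitals. Shown first are the 4 members that were among the 5 largest polysomal falls of both lines, with MRPL3, the one member that fell in T in both lines, then the 6 members that did begin with a TOP start, and last 3 cytosolic ribosomal proteins for reference.
MRPL36 (chr5:1799818-1799837, minus strand): agtgcgcagacgcaggggtc
MRPL12 (chr17:81703367-81703386, plus strand): gtcatttccggctcgaatgc
MRPL52 (chr14:22829887-22829906, plus strand): ggctaccccggctactcctg
MRPS15 (chr1:36464365-36464384, minus strand): gcctcgattggtcgatcctg
MRPL3 (chr3:131502952-131502971, minus strand): gcagagagcatcggccggcg
MRPS27 (chr5:72320221-72320240, minus strand): CCTTTTggtacgctccaaga
MRPS33 (chr7:141014933-141014952, minus strand): CTTCCgggacgagggcgcgt
MRPL44 (chr2:223957463-223957482, plus strand): CTCTCgtgcaatggcgtccg
MRPL45 (chr17:38297168-38297187, plus strand): CCTTTgcgggaacaagatgg
MRPL53 (chr2:74472661-74472680, minus strand): CTTCCggggcggaggtcacc
MRPS2 (chr9:135499965-135499984, plus strand): CCTCTgcgggtgggtccgga
RPLP2 (chr11:809967-809986, plus strand): CCTTTTCCTCCCTgtcgcca
RPLP0 (chr12:120201092-120201111, minus strand): CCTTCTCTCgccaggcgtcc
RPL13A (chr19:49487608-49487627, plus strand): CTTTTCCaagcggctgccga

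A TOP start, counted as C followed by at least 4 pyrimidines at an annotated start, was found in 6 of the 69 matched members (8.7%), against 6.24% of the 15843 genes with a promoter entry and 47 of the 65 matched cytosolic ribosomal protein genes (72.3%). When the run could begin within 5 bases of the start, the share was 23.2% of the members, 28% of all genes and 83.1% of the cytosolic ribosomal protein genes. In the window from 250 bases before to 50 bases after the start, searched on both strands, the letters CCGGAAG, which ETS family factors are known to bind, occurred in 42.0% of the members, 35.4% of the cytosolic ribosomal protein genes, 29.4% of the genes of nuclear-encoded respiratory chain subunits and 16.5% of all genes. The letters AAGATGG, known as a YY1 site, occurred in 34.8% of the members, 13.8% of the cytosolic ribosomal protein genes, 26.5% of the respiratory subunit genes and 7.9% of all genes. MRPL3 held the ETS letters 32 bases before its start, and MRPL52 and MRPL36 held the YY1 letters 64 and 34 bases before theirs, MRPL36 on the opposite strand. These 3 windows are given with the motif in capitals.
MRPL3 (chr3:131502987-131503013, minus strand): gtaaaacgcaCCGGAAGtgggtccggc
MRPL52 (chr14:22829813-22829839, plus strand): acccagattcAAGATGGcgacttcctg
MRPL36 (chr5:1799855-1799881, minus strand): ccccccgccgCCATCTTccttcctggc
The NRF-1 letters GCGCATGCG were found in 3 members (4.35%) against 3.11% of all genes, the E-box CACGTG in 14.5% against 10.9%, and the hypoxia response core ACGTG, which the E-box contains, in 36.2% against 28.5%. A match of letters is a description of these windows and not evidence that a factor binds there.

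The members were short. Their median transcript length was 1260 bases (496 to 15557), against 3288 bases over the genes tested in MCF10A and 830.5 bases for the nuclear-encoded respiratory chain subunits, and that of the cytosolic ribosomal proteins was lower still. Their median coding length was 582 bases (195 to 1317), and 77 of 77 coding lengths lay below the median of the tested genes. In MCF10A 57 of the 77 and in MDA-MB-231 58 of the 77 fell in the shortest of 5 equal classes of the tested genes by transcript length. Per length, the median member in N stood at 47.74 CPM (read counts scaled to a common library total) per kilobase in the T libraries of MCF10A and 46.99 in those of MDA-MB-231. The lowest level per length in MCF10A was 4.63 CPM per kilobase for MRPL42, which has the longest annotated transcript, and the highest was 169 for MRPL33. These levels rest on the annotated lengths, and which transcript of a gene was expressed was not tested.

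The labels and the libraries were checked before any comparison. CA9, a carbonic anhydrase induced by hypoxia, stood in MCF10A T at 10.39 and 8.64 CPM in the N replicates and at 521.7 and 658.2 in the H replicates, and in MDA-MB-231 T at 0.574 and 0.05684 in N and 19.22 and 13.03 in H. NDRG1, another hypoxia-induced gene, rose in the same way, from 69.67 and 81.95 CPM to 1204 and 1431 in MCF10A T, so the hypoxic libraries carried the mark of hypoxia in both lines. The MCF10A libraries in N held the basal keratins KRT5 (1785 and 1190 CPM in T) and KRT14 (751.7 and 458.4). However, the epithelial markers CDH1 (0.05222 and 0.1054 CPM), EPCAM (0.1567 and 0.3161) and TP63 (0.07834 and 0.02107) were near 0 there, and VIM, a mesenchymal filament, stood at 1933 and 2277 CPM. The MDA-MB-231 libraries held VIM (3151 and 3634 CPM) and ZEB1 (71.57 and 59.69), with KRT5 (0 and 0.2842), CDH1 (0.3587 and 0.5684), ESR1 (0.2152 and 0.05684) and PGR (0.3587 and 0.6253) near 0. PTPRC, a leukocyte marker, was at 1.137 CPM or lower in every library. Some markers moved under HPP. In MCF10A, KRT14 (log2FC 2.37 in T, adjusted p = 0.00565) and KRT17 (3.29, adjusted p = 0.0102), which are 2 of the 6 markers listed for this line, rose in T and P, as did FN1, a matrix protein (1.67 in T, adjusted p = 0.0374), while VIM rose in T (1.73, adjusted p = 0.0325) but was not called in P. KRT14 went from 751.7 and 458.4 CPM in T in N to 2314 and 3950 in HPP, and VIM to 4585 and 9370. PECAM1, an endothelial marker, rose from 0.2089 and 0.295 CPM in N to 1.205 and 1.813 in HPP in the same libraries. In MDA-MB-231, FN1 rose in T and P, VIM rose in T and EPCAM fell in P. The part of these markers in the results was not tested.

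Some libraries stood apart from their replicates, with the largest shifts of the members in MCF10A. The summed level of the 77 members in N P was 11840 CPM in replicate 1 and 6917 in replicate 2, while the cytosolic ribosomal proteins summed to 179200 and 82220 CPM in the same libraries. In NPP T the members summed to 4321 CPM in replicate 1 and 8681 in replicate 2, and the cytosolic ribosomal proteins to 88750 and 233300. In H P the members summed to 9058 and 5457 CPM, a median log2 shift of −0.70 from replicate 1 to replicate 2, and the cytosolic ribosomal proteins to 104600 and 53990. The shortest length class of the tested genes moved with them: from replicate 1 to replicate 2 the median log2 shift in NPP T was 1.07 for the members, 1.38 for the cytosolic ribosomal proteins, 0.90 for the shortest class and 0.02 for all tested genes, and in N P it was −0.74, −1.14, −0.72 and −0.02. The members also shifted by 0.45 in MCF10A HPP T and by 0.49 in MDA-MB-231 H T, with 76 of 77 above 0 in the latter. The cytosolic ribosomal proteins shifted by −0.98 in MCF10A HPP P and by 0.63 in MDA-MB-231 H T. Counts and medians of the MCF10A members are therefore given beside values without such libraries, where these turn the direction or move it by much. The part that length has in these shifts was not tested beyond the length-corrected fit given with the results.

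**Figure D1:**
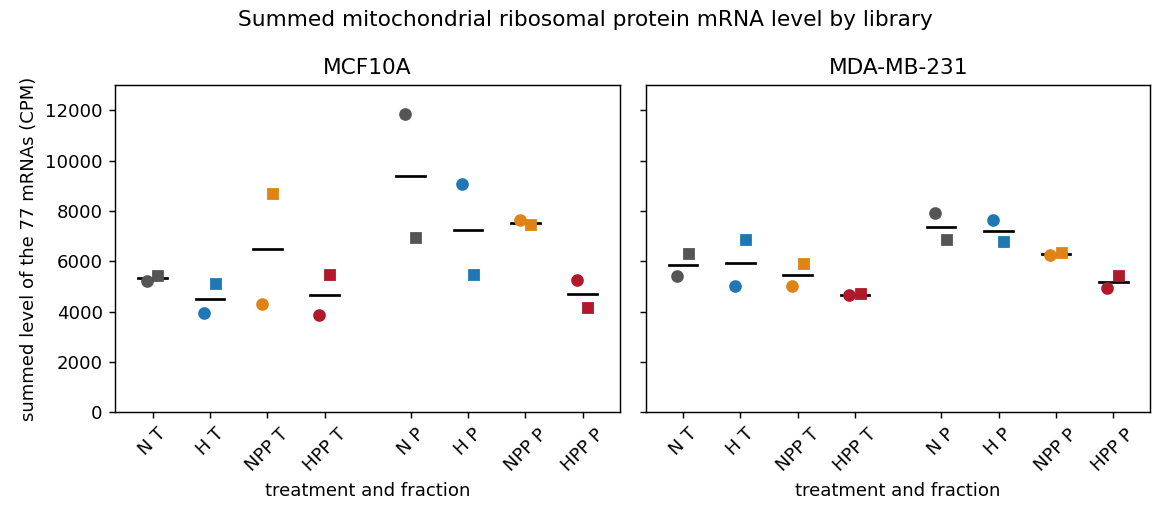
Summed level of the 77 mitochondrial ribosomal protein mRNAs (TMM-scaled CPM, vertical axis from 0) in each of the 32 libraries, by cell line, fraction and treatment, with 1 point per replicate and a bar at their mean. The polysomal libraries fall from N to HPP in both lines, while the MCF10A replicates of N P and NPP T lie far apart.

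Under hypoxia with PP242 polysome-bound mRNA fell for a part of the members in both lines, 54 and 39 of the 77 not being called in MCF10A and MDA-MB-231. In MCF10A P, 23 of the 77 members fell and none rose, with a median log2 change (log2FC) of −1.06 over the members (0.479-fold) against −0.04 over all tested genes, of which 11.9% were called as falling. In MDA-MB-231 P, 38 of 77 fell and none rose, with a median of −0.55 (0.683-fold) against 0.01 over all tested genes, of which 9.73% were called as falling. The log2FC was below 0 for 76 of 77 members in MCF10A and 74 of 77 in MDA-MB-231. Of the falls, 19 were shared by the lines, which is 82.6% of those in MCF10A and 50% of those in MDA-MB-231. Over the 12374 genes tested in both lines, the shared falls were 47.4% and 55.7% of the falls in each. The summed level in P went from 9378 ± 3480 CPM (SD, n = 2) in N to 4699 ± 771 in HPP in MCF10A and from 7376 ± 742 to 5187 ± 331 in MDA-MB-231. All levels are relative to the library, and in bulk samples fewer cells of a type and less RNA per cell cannot be told apart.

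The MCF10A count moved with the fit and when single libraries were left out. It was higher with a replicate block within each fraction or the length offset, and lower with the compared libraries alone, as given in the last section. A fit without 1 library leaves a single library in that group. The share of all tested genes called as falling was also lower in the fits given here. Without replicate 1 of N P, 4 members were called, where 4.43% of all tested genes were called as falling, and the median was −0.50, with 71 of 77 below 0. Without replicate 2 of HPP P 3 were called, where 3.6% of all tested genes were called as falling, with a median of −0.89. In MDA-MB-231 the number called lay between 4 and 30 as each of the 4 libraries was left out, where 2.59% to 6.1% of all tested genes were called as falling. It was lowest without replicate 1 of HPP P (4 of 77 against 2.59% of all tested genes), and the medians lay between −0.62 and −0.33.

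MRPL36, a small protein of the large subunit with a bacterial counterpart, had the largest polysomal fall in MCF10A and the second largest in MDA-MB-231. In MCF10A P its level was 116.1 and 56.15 CPM in N, 78.6 and 41.26 in H, 27.69 and 26.19 in NPP, and 10.49 and 7.847 in HPP. In MDA-MB-231 P it was 71.86 and 57.18 CPM in N, 90.66 and 73.48 in H, 38.16 and 34.75 in NPP, and 27.94 and 33.46 in HPP. In both lines the NPP replicates lay below both N replicates, and the HPP replicates lay below those of NPP. The log2FC in HPP P was −3.23 (SE 0.499, adjusted p = 0.00137) in MCF10A and −1.07 (SE 0.191, adjusted p = 0.00181) in MDA-MB-231. Its total level went from 39.64 and 42.42 CPM in N to 12.85 and 19.17 in HPP in MCF10A, a log2FC of −1.36 that did not pass the threshold. MRPL36 was also the one member called under PP242 alone, in MDA-MB-231 P.

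MRPL12, a stalk protein of the large subunit that is also known to bind the mitochondrial RNA polymerase, fell in P in both lines. In MCF10A P it stood at 376.3 and 190.3 CPM in N and 77.29 and 48.98 in HPP, with a log2FC of −2.17 (SE 0.553, adjusted p = 0.0167). In MDA-MB-231 P it stood at 154.5 and 128.6 CPM in N and 57.58 and 79.02 in HPP, with a log2FC of −1.05 (SE 0.188, adjusted p = 0.00187). The groups did not overlap in either line, although the MCF10A replicates of N differed by more than the distance between replicate 2 of N and replicate 1 of HPP. In T, MRPL12 went from 114.7 and 148.6 to 79.92 and 90.3 CPM in MDA-MB-231 and was called there (log2FC −0.63, SE 0.187, adjusted p = 0.0401), whereas in MCF10A the T change of −0.95 was not. The exons of MRPL12 overlap another protein-coding gene on the same strand over 701 bases, so part of its count may belong to that gene.

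MRPL52, a mitochondria-specific protein of the large subunit, and MRPS15, a small-subunit protein with a bacterial counterpart, were the other members among the 5 largest polysomal falls of both lines. MRPL52 stood in MDA-MB-231 P at 117.2 and 110.1 CPM in N and at 48.77 and 58.72 in HPP (log2FC −1.08, SE 0.218, adjusted p = 0.00399), and in MCF10A P at 129.2 and 57.01 in N and 33.67 and 16.82 in HPP (log2FC −1.88, SE 0.537, adjusted p = 0.0273). MRPS15 stood in MDA-MB-231 P at 138.1 and 105.7 CPM in N and 49.74 and 67.87 in HPP (log2FC −1.05), and in MCF10A P at 282.6 and 107.6 in N and 64.38 and 39.06 in HPP (log2FC −1.92). For each of these genes the HPP replicates lay below the N replicates in both lines. MRPL34, another large-subunit protein, was the third largest fall in MCF10A P (log2FC −2.10, SE 0.581, adjusted p = 0.0242), from 59.15 and 23.95 to 12.21 and 7.193 CPM, and MRPL20 the next after these in MDA-MB-231 P (log2FC −0.89, SE 0.194, adjusted p = 0.00608). MRPL34 overlaps ABHD8 on the opposite strand, and the kit is not stated to keep the strand.

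MRPL3, a protein of the large-subunit core, was the one member that fell in T under HPP in both lines. Its total level in MCF10A was 147.4 and 142.8 CPM in N, 84.11 and 98.8 in H, 125.3 and 157.5 in NPP, and 66 and 73.12 in HPP. In MDA-MB-231 the same levels were 132.9 and 156, 102.8 and 147, 120.8 and 130.5, and 87.6 and 80.36 CPM. The HPP replicates were the lowest in both lines, and in MCF10A the H replicates also lay below both N replicates. The T change was −1.06 (SE 0.241, adjusted p = 0.0128) in MCF10A and −0.78 (SE 0.162, adjusted p = 0.00695) in MDA-MB-231. The P change was −1.5 (SE 0.243, adjusted p = 0.00179) and −0.78 (SE 0.161, adjusted p = 0.00445), so that in MDA-MB-231 the log2 change of MRPL3 was alike in T and P.

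**Figure D2:**
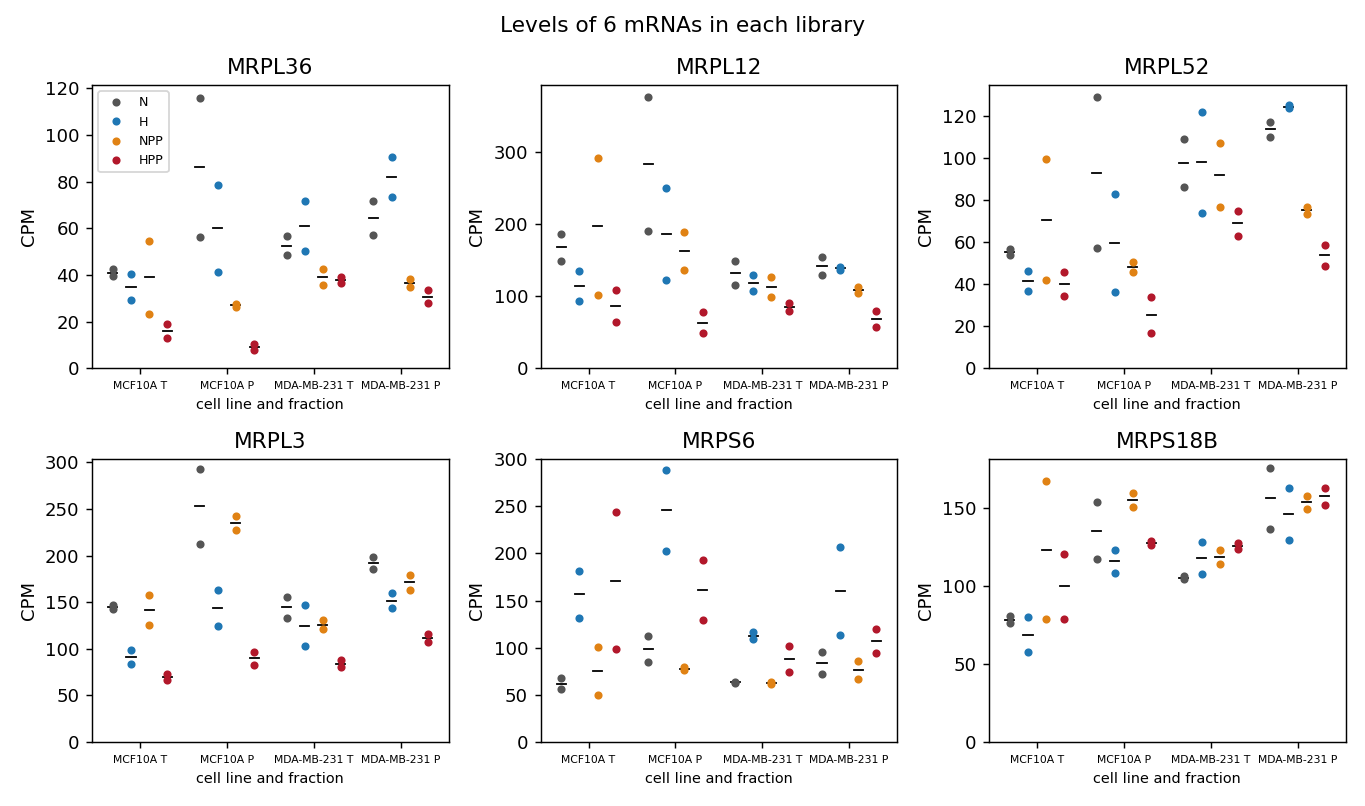
CPM (vertical axes from 0) of MRPL36, MRPL12, MRPL52, MRPL3, MRPS6 and MRPS18B in each library, by cell line and fraction, with colours for N, H, NPP and HPP, 1 point per replicate and a bar at their mean. MRPL36, MRPL12, MRPL52 and MRPL3 fall in P under HPP in both lines, whereas MRPS6 rises in MCF10A T and the HPP replicates of MRPS18B lie between those of N in P.

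Total mRNA changed for fewer members. In MCF10A T under HPP, 4 of 77 fell and 1 rose, with a median of −0.18 over the members and −0.01 over all tested genes, of which 7.47% were called as falling and 7.43% as rising. In MDA-MB-231 T, 9 of 77 fell and none rose, with a median of −0.35 (0.784-fold) against −0.05 over all tested genes, of which 6.91% were called as falling. Beside MRPL3, the MCF10A falls in T were MRPL42 (log2FC −1.03), MRPS10 (−0.99) and MRPL30 (−0.67). MRPL20 fell most in MDA-MB-231 T, from 65.72 and 78.44 to 40.05 and 38.06 CPM (log2FC −0.88, SE 0.194, adjusted p = 0.00952), followed by MRPL3, MRPL4 (−0.65), MRPL46 (−0.64) and MRPL12. MRPL46 overlaps another protein-coding gene on the same strand over 721 bases. All 4 members that fell in MCF10A T, and all 9 that fell in MDA-MB-231 T, also fell in P. A further 19 and 29 members fell in P without a call in T. The overlap of T and P calls over all tested genes is not set beside these counts, so they describe the members alone. The count in T moved with the fit. In both lines more members were called with a replicate block within each fraction or with the length offset, as given in the last section. The call in T was not stable in MCF10A. Without replicate 1 of HPP T the median turned to 0.07 with 2 members called, and without any one of the other 3 libraries none was called, where 2.11% to 3.46% of all tested genes were called as falling across these 4 fits. In MDA-MB-231 T, 5 members or fewer were called without any one library, and none without replicate 2 of N T or replicate 2 of HPP T, where 1.08% to 5.86% of all tested genes were called as falling.

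MRPS6, a small-subunit protein, was the only member called as rising in T under HPP in MCF10A. Its T level there was 56.06 and 67.77 CPM in N, 131.9 and 181.7 in H, 49.97 and 100.8 in NPP, and 98.26 and 243.6 in HPP (log2FC 1.46 in HPP, SE 0.444, adjusted p = 0.0457). In MDA-MB-231 T it was 62.13 and 64.01 CPM in N, 116.1 and 109.3 in H, 64.1 and 60.97 in NPP, and 101.9 and 74.08 in HPP, where it was not called. The hypoxic replicates lay above those of N in both lines, with and without PP242. MRPS6 shares 168 exonic bases on the same strand with SLC5A3, an inositol transporter gene, so its reads cannot be assigned with certainty.

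**Figure D3:**
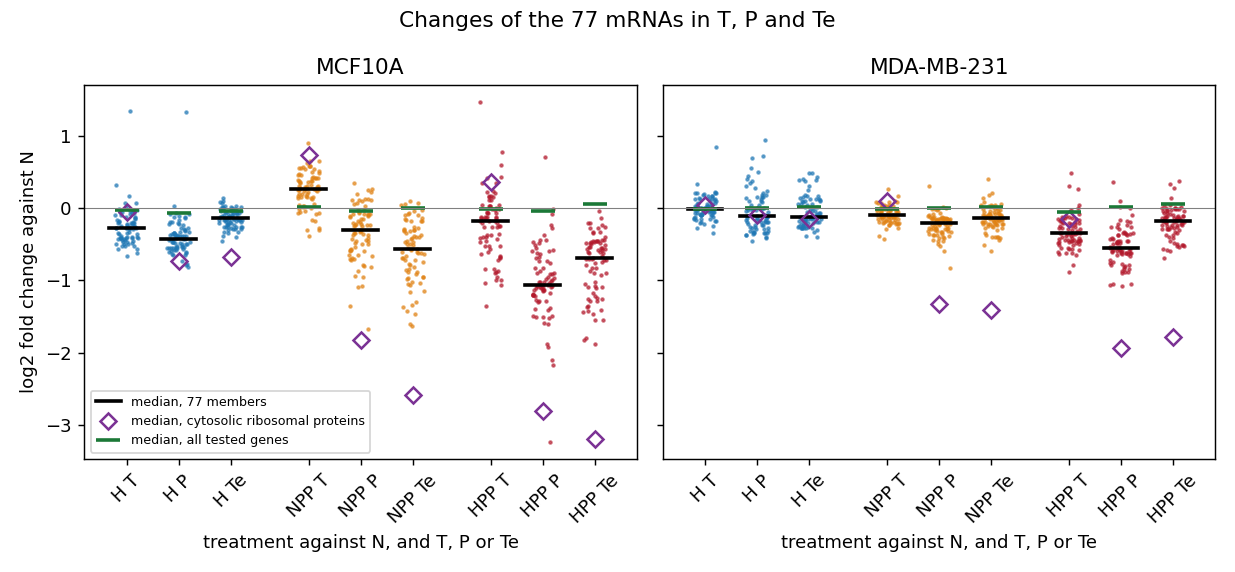
Log2FC against N of the 77 members (1 point each) under H, NPP and HPP in T, P and Te, by cell line, with black bars at the members' median, green bars at the median of all tested genes and open diamonds at the median of the cytosolic ribosomal proteins. Under HPP the members' median in P is −1.06 in the MCF10A panel and −0.55 in the MDA-MB-231 panel, between the median of all tested genes and that of the cytosolic ribosomal proteins.

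No member was called for translational efficiency, although most of the Te values under HPP were below 0. Under HPP the log2 change in P was lower than that in T for 77 of 77 members in MCF10A, with a median Te change of −0.69 against 0.05 over all tested genes, and for 70 of 77 in MDA-MB-231, with a median of −0.18 against 0.06. Over all tested genes P was lower than T for 46.6% in MCF10A and 39.5% in MDA-MB-231. No member passed the interaction test of edgeR in either line, in which 0% and 0.696% of all tested genes were called, and DESeq2 called none, while 10 members in MCF10A and 7 in MDA-MB-231 had an unadjusted p under 0.05, as 3.3% and 3.36% of all tested genes did. The lowest p was that of MRPL45 in MCF10A (log2FC of Te −1.36, SE 0.431, adjusted p = 0.712) and of MRPL10, a stalk protein, in MDA-MB-231 (−0.57, SE 0.185, adjusted p = 0.617). In MCF10A the median was −0.25 without replicate 1 of N P, with 68 of 77 below 0. With a correction for transcript length the MCF10A median was −0.17, and that of MDA-MB-231 was −0.02 with 42 of 77 below 0.

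MRPL10 went up in T and down in P. In MCF10A T it stood at 54.78 and 68.57 CPM in N and 75.36 and 135.1 in HPP, and in P at 100.4 and 81.32 in N and 68.96 and 60.75 in HPP. In MDA-MB-231 T it stood at 46.28 and 51.73 CPM in N and 59.04 and 62.21 in HPP, and in P at 68.99 and 74.26 in N and 54.92 and 64.44 in HPP. The N and HPP replicates did not overlap in any of these 4 pairs, but none of the changes in T, P or Te was called. The highest Te change in MDA-MB-231 was that of MRPS16, a small-subunit protein, at 0.38 (SE 0.221, adjusted p = 1), whose HPP replicates of P, at 82.65 and 95.08 CPM, overlapped those of N, at 90.81 and 76.23.

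**Figure D4:**
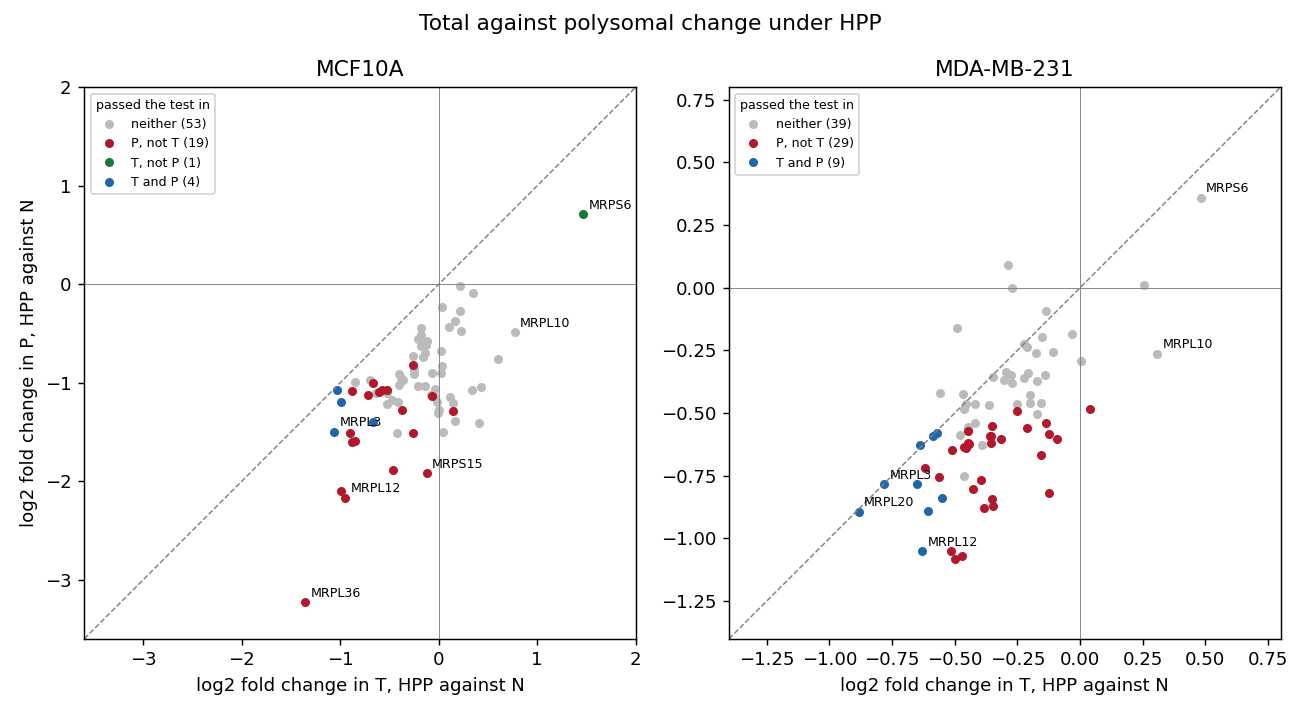
Log2FC under HPP in P (vertical axis) against that in T (horizontal axis) for the 77 members in each line, with the line of equal change and colours for the fraction in which a member was called. In MCF10A 77 points and in MDA-MB-231 70 points lie below the line of equal change.

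Across the 77 members, the HPP changes in T and P had a Pearson's r of 0.63 (Spearman's rho 0.457) in MCF10A and 0.657 (0.617) in MDA-MB-231, and the P changes of the lines had an r of 0.679 (0.599). These are descriptions across genes measured against the same N libraries, and genes are not independent replicates. Split by symbol alone, 15 of the 48 members named MRPL fell in MCF10A P under HPP (median −1.07) and 8 of the 29 named MRPS (−1.03). The share called as falling over all tested genes was 11.9% there. For MDA-MB-231 P the counts were 26 of 48 (−0.58) and 12 of 29 (−0.46), beside a share of 9.73% over all tested genes. Members with a bacterial counterpart and those specific to mitochondria had medians of −1.09 and −1.04 in MCF10A, and in MDA-MB-231 both medians were −0.55. These splits are given as counts without a test of their difference.

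The paralogs MRPS18A, MRPS18B and MRPS18C, of which MRPS18A is known to sit in the large subunit, differed in their values under HPP. MRPS18C fell in P in both lines (log2FC −1.28, adjusted p = 0.0375, and −0.80, adjusted p = 0.0134). MRPS18B stood in MCF10A P at 154.1 and 117 CPM in N and 126.1 and 128.7 in HPP, and in MDA-MB-231 P at 175.7 and 136.5 and at 151.8 and 163, so its HPP replicates lay between those of N in both lines. MRPS18A had P changes of −1.13 and −0.37, neither of which was called. MRPS18C overlaps ABRAXAS1 and MRPS18A overlaps RSPH9 on the opposite strand. MRPS12, a protein of the decoding centre, fell in MDA-MB-231 P (log2FC −0.64, SE 0.154, adjusted p = 0.0109), as did MRPL11 of the stalk base (−0.88, SE 0.198, adjusted p = 0.00762), from 94.07 and 85.4 to 43.59 and 54.02 CPM. MRPL19 of the large subunit, which overlaps GCFC2 on the opposite strand, fell in P in both lines (−1.07 and −0.84). MRPS36, which keeps its ribosomal name but is known as a subunit of the 2-oxoglutarate dehydrogenase complex, had P changes of −1.21 and −0.38 and was not called.

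Values are given here for each of the 6 members with a TOP start. Their P changes under HPP in MCF10A and MDA-MB-231 were −0.82 and −0.54 for MRPS27, −1.29 and −0.60 for MRPS33, −0.76 and −0.48 for MRPL45, −1.07 and −0.58 for MRPL53, −1.03 and −0.43 for MRPS2, and −0.37 and −0.22 for MRPL44. MRPS27 and MRPS33 were called in both lines, MRPL45 and MRPL53 in MDA-MB-231, and MRPS2 and MRPL44 in neither. Their Te changes under HPP, of which none was called, were −1.44 and −0.51 for MRPS33, −1.42 and −0.46 for MRPL53, −1.36 and −0.52 for MRPL45, −0.89 and −0.23 for MRPS2, −0.56 and −0.40 for MRPS27, and −0.54 and −0.003 for MRPL44, in the same order of the lines. Set against the Te median of all members, −0.18 for MDA-MB-231, each of them but MRPL44 was lower. Against −0.69 for MCF10A, MRPS33, MRPL53, MRPL45 and MRPS2 were lower, and MRPS27 and MRPL44 higher. For P, MRPS33 and MRPL53 alone were below the member medians of both lines (−1.06 and −0.55). The 5 largest P falls in each line held no member with a TOP start among those matched to a RefSeq start. With 6 such members among 69 matched, that absence cannot show whether the start mattered, which was not tested.

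Under PP242 alone 1 member was called, in P of one line. In MDA-MB-231 P under NPP, MRPL36 was the single member called (log2FC −0.82, SE 0.19, adjusted p = 0.0368), where 1.19% of all tested genes were called as falling, and 74 of 77 members were below 0 with a median of −0.21. The call of MRPL36 was lost without replicate 1 of N P or without either replicate of NPP P. In MCF10A P no member was called, where 0.823% of all tested genes were, the median was −0.31 with 63 of 77 below 0, and MRPL36 had the lowest p (log2FC −1.68, SE 0.469, adjusted p = 0.122). That median was 0.12 without replicate 1 of N P. In T under NPP no member was called in either line, where 0.648% and 0.555% of all tested genes were called. The T median of 0.27 in MCF10A was −0.28 without replicate 2 of NPP T, the library that stood apart. No member was called for Te under NPP, where 0% and 0.34% of all tested genes were called. The Te median of −0.57 in MCF10A was −0.0025 without that library, and in MDA-MB-231 it was −0.13 with 65 of 77 below 0. Under NPP 3 members had an unadjusted p under 0.05 in MCF10A P and 11 in MDA-MB-231 P, 1 and 2 in T, and 1 and 2 for Te, whereas 13.3% and 13.6% of all tested genes did in P, 9.54% and 10.3% in T, and 2.26% and 2.18% for Te. DESeq2 called 1 and 2 members in P and none in T or Te.

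Hypoxia alone gave no call in the main fit. A few members were called in other fits, among them those with a replicate block or the length offset, as given in the last section. In MCF10A the median log2FC under H was −0.28 in T and −0.43 in P, with 71 and 75 of 77 members below 0, where 1.54% and 1.49% of all tested genes were called. Without replicate 1 of N P the P median there was 0.04 with 36 of 77 below 0. That fit is unbalanced, since it sets replicate 2 of N against both H replicates. From replicate 1 to replicate 2 the members shifted by −0.735 in N P and −0.699 in H P. It therefore cannot show whether the direction holds. The median member stood in MCF10A P at 125.7 and 75.67 CPM in the N replicates and at 89.19 and 57.66 in the H replicates, lower in H for each replicate number. In MDA-MB-231 the median log2FC was −0.02 in T and −0.11 in P, with 42 and 51 of 77 below 0, where 1.27% and 2.29% of all tested genes were called. The unadjusted p was under 0.05 for 4 and 8 members in MCF10A T and P and for 2 and 13 in MDA-MB-231 T and P, against 10.9%, 12.5%, 12.7% and 17.2% of all tested genes, and DESeq2 called 0 and 0, and 1 and 3. MRPS6 had the lowest p in T of both lines, with a log2FC of 1.34 (adjusted p = 0.227) in MCF10A and 0.84 (adjusted p = 0.132) in MDA-MB-231. In P the lowest p was that of MRPL3 in MCF10A (log2FC −0.81, SE 0.24, adjusted p = 0.143) and of MRPL33, a small large-subunit protein, in MDA-MB-231 (0.69, SE 0.176, adjusted p = 0.0586). For Te under H no member was called, where 0% and 0.0148% of all tested genes were, and the medians were −0.14 and −0.12, with 0 and 1 members at an unadjusted p under 0.05 (0.175% and 1.33% of all tested genes) and none called by DESeq2. The MCF10A Te median turned to 0.27, with 8 of 77 below 0, without replicate 1 of N P, to 0.13 without replicate 2 of H P and to 0.14 without replicate 2 of H T. Leaving out replicate 1 of N P or replicate 2 of H P unbalances the replicates in the way given above. H, NPP and HPP were compared with the same N libraries, so their values for one gene are not independent.

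The number called in one line and not in the other does not show that the lines differed, and the difference itself was tested in a joint fit of the 32 libraries. The P change under HPP was smaller in size in MDA-MB-231 than in MCF10A for MRPL36 (difference in log2FC 2.13, SE 0.518, adjusted p = 0.0231) and MRPL30 (1.03, SE 0.243, adjusted p = 0.0198), among 2.16% of all tested genes called in that direction. MRPL30 stood in MCF10A P at 54.69 and 53.13 CPM in N and 22.26 and 18.72 in HPP, and in MDA-MB-231 P at 67.85 and 69.58 in N and 49.91 and 58.12 in HPP. It overlaps another protein-coding gene on the same strand over 380 bases. None of the other 75 members was called, although the median difference was 0.47. No member was called without replicate 2 of HPP P in MCF10A, or without either replicate of N P or replicate 2 of HPP P in MDA-MB-231. For T under HPP no member was called as different between the lines, where 3.31% of all tested genes were, with 3 members and 15.4% of all tested genes at an unadjusted p under 0.05 and none of the members called by DESeq2.

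In normoxia P was compared with T. The log2 difference of P over T in N had a median of 0.41 over the members and −0.03 over all tested genes in MDA-MB-231, where 17 of 77 were higher in P, 3 were lower and 57 were not called, against 4.42% and 8.64% of all tested genes. The 3 lower members were MRPL33, MRPL57 and MRPL34, which are small proteins of the large subunit. MRPL33 stood at 77.38 and 82.59 CPM in T and 37.5 and 36.64 in P (log2 difference −1.11, SE 0.177, adjusted p = 0.00153), and MRPL57 at 48.07 and 54.34 in T and 30.57 and 27.15 in P (−0.83, SE 0.153, adjusted p = 0.00405). The highest differences were those of MRPL28 (0.86), MRPS23 (0.80), MRPS18A (0.76), MRPL49 (0.74) and MRPL16 (0.73). MRPL28 shares 223 exonic bases with PGAP6 on the same strand, and MRPL49 overlaps SYVN1 on the opposite strand. The count of 20 members called was lower without replicate 1 or 2 of N T, without replicate 1 of N P and with the culture block. It was higher with DESeq2 and with a replicate block within each fraction, as given in the last section. In MCF10A the median was 0.83 (0.38 without replicate 1 of N P), but no member was called, where 0% of all tested genes were, with 41 members and 12.6% of all tested genes at an unadjusted p under 0.05 and 1 member called by DESeq2. P and T libraries passed through different handling before sequencing, which cannot be told apart from ribosome loading here.

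The resting levels differed between the lines for some members. In T in N, 3 of 77 were higher and 19 lower in MDA-MB-231 than in MCF10A, where 20.3% and 20.5% of all tested genes were. MRPS21, a small-subunit protein, had the largest difference, at 132.3 and 124.1 CPM in MCF10A against 26.22 and 29.27 CPM in MDA-MB-231 (log2 difference −2.68, SE 0.396, adjusted p = 1.24e-05). MRPL23 (−1.39), MRPL55 (−1.28), MRPL24 (−1.26) and MRPL38 (−1.13) followed. The higher members were MRPL2 (1.2), MRPS10 (1.04) and MRPS30 (0.50), the last known to sit in the large subunit. Fewer members were called without any one of the 4 libraries. More were called with a replicate block within each fraction, with the length offset or with the compared libraries alone, as given in the last section. The 2 lines are from different donors and differ in culture, and each is a single line.

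The other short mRNAs of comparable products were set beside the members under HPP. The 81 tested mRNAs of cytosolic ribosomal proteins had lower medians in P, with 74 called in MCF10A (median −2.81) and 79 in MDA-MB-231 (median −1.94), while none was called in T (medians 0.36 and −0.15). RPLP2, a cytosolic stalk protein, stood in MDA-MB-231 P at 652.4 and 543.4 CPM in N and 123.2 and 138.1 in HPP, against the fall of MRPL12 given above. The nuclear-encoded respiratory chain subunits, which the mitochondrial ribosome's products join, were nearer to the members, with 15 of 80 called as falling in MCF10A P (median −1.02) and 34 of 79 in MDA-MB-231 P (median −0.52). Without replicate 1 of N P in MCF10A the median was −2.07 for the cytosolic ribosomal proteins and −0.37 for the respiratory subunits. Fewer of both were called in that fit, and also without replicate 2 of HPP P. In MDA-MB-231 nearly all cytosolic ribosomal proteins were called without any one P library of N or HPP. Fewer respiratory subunits were called in these fits than with all libraries, fewest without replicate 1 of HPP P. For Te, 73 of 81 cytosolic ribosomal proteins fell in MDA-MB-231 (median −1.78), where 0.696% of all tested genes fell and no member of the mitochondrial set was called. In MCF10A no cytosolic ribosomal protein was called for Te, at a median of −3.19, where 0% of all tested genes were.

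The study's methods select genes by their P change and then by a z-score of Te, which they write as a ratio of the log2FC values. A rule of this kind was applied here to the difference of the log2FC in P and T, scaled by its SD over all tested genes. A gene was called as falling with a P change at an adjusted p under 0.05 (MCF10A) or 0.10 (MDA-MB-231) and a z-score below −1.5. By this rule 6 members were called as falling under HPP in MCF10A, MRPL12, MRPL17, MRPL36, MRPL52, MRPS15 and MRPS33, where 1.98% of all tested genes were. None was in MDA-MB-231, where 1.04% of all tested genes were, and none under H or NPP in either line. Across the members the z-score under HPP had a median of −0.85 for MCF10A and −0.39 for MDA-MB-231, against −4.02 and −2.73 for the cytosolic ribosomal proteins. In MCF10A the median z-score was −0.40 without replicate 1 of N P. The number called in MCF10A was 2 with the SD taken over genes called in P (1.34% of all tested genes). It was 11 with the thresholds of the lines exchanged (2.6% of all tested genes). It was higher without replicate 2 of N P and lower without any other P library of N or HPP. In MDA-MB-231 it was 0 without any one P library of N or HPP, where the median z-score of the cytosolic ribosomal proteins lay between −1.7 and −1.31, in fits that held more genes.

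Length moved with these values. Over the shortest length class of all tested genes the median log2FC under HPP was −0.48 in P and 0.14 in T in MCF10A, whereas in MDA-MB-231 it was −0.21 in P and −0.10 in T, so in P the median of short mRNAs as a whole lay above that of the members. With a correction that removes in each library the trend of counts with transcript length, the median P change of the members was −0.75 in MCF10A, with 42 called as falling and 1 as rising, and −0.34 in MDA-MB-231, with 30 called as falling, where 18.4% and 11.7% of all tested genes were called as falling. The median Te change became −0.17 in MCF10A, with 58 of 77 below 0, and −0.02 in MDA-MB-231, with 42 of 77 below 0, whereas that of the cytosolic ribosomal proteins went from −3.19 to −2.39 and from −1.78 to −1.48. With the same correction more members were called in T under HPP in both lines than without it. The respiratory subunits then had Te medians of −0.22 and −0.02. Under NPP the correction turned the T median of the members in MCF10A from 0.27 to −0.09 and the Te median from −0.57 to 0.03.

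**Figure D5:**
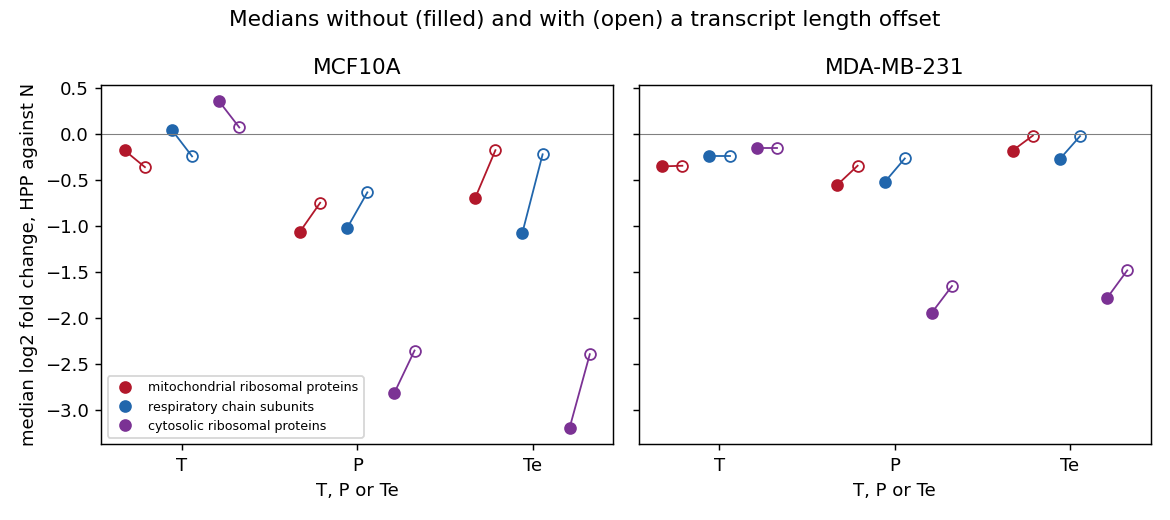
Median log2FC under HPP (vertical axis) in T, P and Te of the mitochondrial ribosomal proteins, respiratory chain subunits and cytosolic ribosomal proteins, by cell line, without (filled) and with (open) the correction for transcript length. The Te medians of the members come near 0 in MDA-MB-231 with the correction, and those of the cytosolic ribosomal proteins move to −2.39 and −1.48.

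Genes that serve the mitochondrial ribosome, were taken from lists by function and are given under HPP in P, where 11.9% of all tested genes were called as falling in MCF10A and 9.73% in the other line. Of the 22 tested assembly factors 7 fell in MCF10A P and 7 in MDA-MB-231 P, among them MPV17L2 (log2FC −2.97 and −0.65) and MTERF3. MTERF3 (log2FC −1.57, SE 0.253, adjusted p = 0.00172 in MCF10A) stood in MCF10A P at 59.22 and 42.18 CPM in N and 17.66 and 16.53 in HPP, and in MDA-MB-231 P at 30.7 and 24.44 in N and 13.63 and 13.99 in HPP. Of the 15 genes listed as mitochondrial translation factors 3 and 5 fell, among them MRRF, the ribosome recycling factor (−1.11 and −0.64), TACO1, an activator of COX1 translation (−1.48 and −0.89), and SLIRP, which stabilises mitochondrial mRNAs (−2.17 and −1.03). Of the 17 mitochondrial tRNA synthetases 1 fell in each line, MARS2, the methionyl enzyme (−2.54 and −1.31). Of the 9 genes of mitochondrial DNA expression 2 fell in MCF10A P (median −0.34), and in MDA-MB-231 P none fell and 1 rose (median −0.19). Of the 6 other mitoribosome subunits, which carry names outside the rule, 1 and 3 fell, with medians of −0.83 and −0.48. The 1 of 17 synthetases is a share below that background. Without replicate 1 of N P in MCF10A fewer genes were called in each of these lists except the synthetases, whose count was the same.

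Of 9 regulators known to act on nuclear genes for mitochondrial proteins, 5 fell and 1 rose in MCF10A P and 4 fell and 1 rose in MDA-MB-231 P, with 4 and 3 falls and 1 rise each in T. Over all tested genes 11.9% and 9.73% fell and 10.2% and 9.71% rose in P, and 7.47% and 6.91% fell in T. Without replicate 1 of N P in MCF10A fewer regulators were called as falling and none as rising. NRF1, a transcription factor of many such genes, stood in MCF10A T at 13 and 14.48 CPM in N and 4.109 and 4.264 in HPP, and in MDA-MB-231 T at 16.65 and 19.04 in N and 11.48 and 10.76 in HPP. Its P change was −1.68 (SE 0.259, adjusted p = 0.00139) in MCF10A and −0.68 (SE 0.161, adjusted p = 0.0096) in MDA-MB-231. PPRC1, a coactivator of the PGC-1 family, fell in T and P of both lines (P changes −2.71 and −0.98). PPRC1 stood in MCF10A T at 56.48 and 59.74 CPM in N, 23.43 and 14.32 in NPP and 8.435 and 5.506 in HPP. PPARGC1B, another coactivator of that family, was called as falling in both lines at low counts, from 1.327 and 2.104 CPM in N to 0.02776 and 0.1353 in HPP in MCF10A P. MYC, a transcription factor of many growth genes, rose in T and P of both lines, with P changes of 1.29 (SE 0.286, adjusted p = 0.00838) and 0.54 (SE 0.133, adjusted p = 0.0117). Their part in the members' changes was not tested.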

How the data were processed

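Total and polysome-bound RNA of 2 cell lines was sequenced from poly-A libraries (TruSeq RNA v2 kit, paired-end). The authors aligned reads with STAR to GRCh38 and the GENCODE annotation, although the processing notes in the labels name GRCh37, and deposited expected counts per gene from RSEM. These deposited values were whole numbers, and no normalized values were used. Counts were fitted per line (16 libraries, 8 groups) with edgeR 4.0.16 (limma 3.58.1, R 4.3.3), filterByExpr, TMM scaling and the quasi-likelihood test, with Benjamini-Hochberg adjustment over all tested genes (13124 in MCF10A, 13510 in MDA-MB-231, 14298 in the joint fit of both lines) and a threshold of 0.05. Te was the interaction of fraction and treatment. CPM are TMM-scaled. DESeq2 1.42.0, no filter, a transcript-length offset, fits of the compared libraries alone, replicate blocks and leaving out each library were alternatives. The labels give 2 biological replicates per group. The T and P library of a culture share a number in their titles, so Te and P over T were also fitted with a culture block. Over all tested genes, deviations of such pairs correlated at −0.25 to 0.214 in MCF10A and 0.00239 to 0.348 in MDA-MB-231. The smallest two-sided permutation p for 2 against 2 is 0.333, so the tests rely on pooled dispersion. Tests were run on simulated data first, which for MDA-MB-231 P under HPP recovered 58% of 2-fold and 89.6% of 4-fold changes, and for MCF10A 4.08% and 44.9%. Far fewer genes were changed in the simulation than were called in these data, so these shares apply to the simulation alone. Lengths and overlaps came from GENCODE, and 23 of 77 members share exonic bases with another protein-coding gene, 7 on the same strand. The pseudogenes of MRPS31 hold 32.2% as many counts as the gene, so it is uncertain. Genes were named by a rule: the 5 largest rises and falls among called members of each comparison, members called in both lines, a fixed panel, the lowest p where none was called, and up to 3 called genes of each list. The members, lists and tests were chosen with earlier results of these data known. Columns of the tables other than the 32 libraries were not used.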

Additional observations from a re-analysis of the deposited data

Results flagged for a closer look

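The change in P under HPP differed between the lines for 2 members by the interaction test of the joint edgeR fit, where 2.16% of all tested genes were called in that direction, a share near that of the members. No member was called without replicate 2 of HPP P in MCF10A, without replicate 1 or 2 of N P or replicate 2 of HPP P in MDA-MB-231, or with the compared libraries alone. MRPL36 fell less in MDA-MB-231 than in MCF10A by 2.13 on the log2 scale (adjusted p = 0.0231), and the difference lay between 1.56 and 2.54 as each library was left out. MRPL30 fell less in MDA-MB-231 by 1.03 (adjusted p = 0.0198), with 0.91 to 1.15 as each library was left out.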

How the results depend on the processing

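Member calls for Te by the interaction test were 0 in every setting tried. No named result reversed. Of the 52 named results, 1 lost its call with DESeq2, 4 with no filter, 10 with the compared libraries alone, 4 with the length offset and none with the replicate blocks by number. Of those that could also be fitted with the culture block, 10 kept their call and 1 (MRPL19, P over T in N in MDA-MB-231) lost it. With DESeq2, calls among the members went from 0 to 1 in MCF10A P under NPP, MCF10A P over T in N and MDA-MB-231 T under H, from 0 to 3 in MDA-MB-231 P under H, from 1 to 2 in MDA-MB-231 P under NPP, and from 20 to 41 in MDA-MB-231 P over T in N. With no filter they were 3 in MCF10A T under HPP, 1 and 4 in MDA-MB-231 T and P under H, and 1 for the line difference in P. With a length offset they were 2, 2 and 2 in MCF10A T and P under H and P under NPP, 16 and 43 in MCF10A T and P under HPP, 14 in MCF10A P over T, 3 in MDA-MB-231 P under H, 22 in MDA-MB-231 T under HPP, 5 and 2 for the line difference in P and T, and 36 for the lines in N. With the compared libraries alone they were 1, 2 and 9 in MCF10A T under H, T under HPP and P under HPP, 0 in MDA-MB-231 P under NPP, 0 for the line difference in P and 46 for the lines in N. Across treatments the replicate numbers are not tied to a shared culture by the labels. Over all tested genes, same-numbered samples correlated above 0.1 in 6 of 6 pairs in MCF10A T, 3 of 6 in MCF10A P and 4 of 6 in each MDA-MB-231 fraction. Over the members alone the correlations were 0.334 to 0.842 in MCF10A T and 0.37 to 0.873 in MCF10A P. In MDA-MB-231 they were 0.0883 to 0.487 in T and 0.0109 to 0.705 in P. With a replicate block within each fraction the calls were 1, 2, 1, 17 and 57 in MCF10A T under H, P under H, P under NPP, T under HPP and P under HPP, 1, 4, 3, 24 and 38 in MDA-MB-231 T under H, P under H, P under NPP, T under HPP and P over T, 6 for the line difference in P and 34 for the lines in N. With a block shared by the fractions they were 1, 3 and 2 in MDA-MB-231 T under H, P under H and P under NPP. As each library was left out, calls ranged from 0 to 2 in MCF10A T under HPP, 3 to 29 in MCF10A P under HPP, 0 to 1 in MDA-MB-231 P under H and under NPP, 0 to 5 in MDA-MB-231 T under HPP, 4 to 30 in P under HPP and 5 to 20 in P over T, 0 to 3 for the line difference in P and 8 to 12 for the lines in N. With a culture block, chosen for P over T after seeing the data, no member was called for Te in either line or for P over T in MCF10A, and 15 were in MDA-MB-231. The z-score calls in MCF10A under HPP went from 6 to 11 with the lines' thresholds exchanged to 2 with the spread taken over called genes, and to between 1 and 7 without each P library, the last chosen after seeing the data. The cause of these moves was not tested. Shares over all tested genes are not set beside the counts of this section. The counts therefore do not show whether the members moved more than other genes did. In simulated data, 1.5-fold changes in P under HPP were recovered in 0% (MCF10A) and 8.16% (MDA-MB-231) of cases. Most changes of that size were thus missed in the simulation. The simulation changed 48 to 50 genes at each fold, whereas 9.73% of all tested genes fell and 9.71% rose in MDA-MB-231 P under HPP. Adjustment over all genes depends on how many change, so the simulated shares do not give the recovery in these data. In MDA-MB-231 P under HPP 38 of 77 members fell, and the median over all 77 was −0.55.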
